A study of Mus musculus with 5 samples.

Results

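Tfrc and Slc31a2 encode metal uptake proteins, and both were followed through 21 h of lipopolysaccharide (LPS) in mouse bone marrow-derived macrophages. They are 2 of the 9050 genes named on the array, taken by exact gene symbol together with every probe of each. Both have values on all 5 arrays, Tfrc from 1 probe and Slc31a2 from 3. The pair was chosen for its pattern in these data, so its members were chosen by the same log ratios that are given here as a description, with no test.

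Marrow of C3H/ARC mice was the source, and the cells were grown in culture with human CSF-1, on which these cells depend for growth. One array each held total RNA of untreated cells (0 h) and of cells given LPS of S. minnesota at 10 µg per ml for 0.5, 2, 7 or 21 h. The second channel of every array held total RNA of whole C57BL6/J embryos of 17.5 days, so each value is a ratio between macrophages and a mixture of embryonic tissues. The labels do not say how many mice were pooled or whether 1 batch of embryo RNA served all arrays. With 1 array a time there is no replicate and no p-value, and precision is limited by that number. In bulk RNA, fewer cells of a type and less RNA per cell cannot be told apart.

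Transferrin carries iron in plasma, and the transferrin receptor encoded by Tfrc takes it into the cell through clathrin-coated endosomes. When cellular iron is low, iron regulatory proteins bind the Tfrc mRNA and stabilise it, and they block translation of the ferritin mRNAs, whose proteins store iron. Dividing cells carry much transferrin receptor, and macrophages reshape iron uptake, storage and heme breakdown during infection. Slc31a2 encodes CTR2, a relative of the copper importer CTR1 (Slc31a1) that sits largely on endosomes and lysosomes and influences copper uptake and storage. Activated macrophages are known to move copper into phagosomes.

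To show the DNA ahead of a listed start of each gene, 250 bases are printed from RefSeq (GRCm38.p6, plus strand, 5′ to 3′). The first Tfrc start is also the start of the gene in the RefSeq gene table. The listed Slc31a2 start lies 6036 bases inside the gene as that table gives it, so its window and the matches in it are not the DNA before the whole gene. Capitals mark letters of the motifs searched on both strands. The second Tfrc line is a stretch of 30 bases from the window of the other listed Tfrc start, where the hypoxia-response core lies. That start lies 226 bases inside the gene, and the core runs across the first listed start. The Tfrc lines are chr16:32608646-32608895 and chr16:32608882-32608911, and the Slc31a2 line is chr4:62286179-62286428.
Tfrc, before the first listed start: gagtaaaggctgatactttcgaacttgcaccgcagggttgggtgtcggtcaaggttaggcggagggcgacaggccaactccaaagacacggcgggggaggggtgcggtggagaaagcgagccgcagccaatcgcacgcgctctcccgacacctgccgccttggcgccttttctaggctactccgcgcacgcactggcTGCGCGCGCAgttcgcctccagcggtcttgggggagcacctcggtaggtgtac
Tfrc, stretch with the hypoxia-response core: ctcggtaggtgtACGTGcggaaggaagtga
Slc31a2: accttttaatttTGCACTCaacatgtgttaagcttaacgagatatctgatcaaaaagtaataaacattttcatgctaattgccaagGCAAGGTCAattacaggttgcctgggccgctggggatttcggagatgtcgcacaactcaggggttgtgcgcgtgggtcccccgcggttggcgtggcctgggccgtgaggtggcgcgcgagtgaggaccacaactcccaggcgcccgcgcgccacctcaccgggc

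The letters searched were ACGTG for the hypoxia-response core, bound by hypoxia-inducible factors, and CACGTG for the E-box of Myc and Max, which contains that core. For the metal-response element bound by the factor MTF1 they were TGCGCNC as a first core, and TGCACNC as a second core. The antioxidant-response core, bound by the factor NRF2, was searched as TGACNNNGC. Among 32851 windows of this length in the table, the hypoxia-response core was found in 16.6%, the E-box in 6.02%, the first metal-response core in 12.5%, the second in 10.4% and the antioxidant-response core in 10.2%. The first Tfrc window held the first metal-response core at 2 overlapping places, 1 on each strand, and the window of the second start held the hypoxia-response core once. The Slc31a2 window held the second metal-response core once and the antioxidant-response core once, and the E-box was in none of the 3 windows. A match is a description of these letters, and the arrays measured no binding.

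The table holds 1 log ratio for each probe, read here as log10. The log base and which channel was the numerator are not stated in the labels. If the base was 2, every log2 value below is 3.32 times too large. Macrophage over embryo is the likely direction, and if it was reversed, all signs below turn round. It rests on marker genes. From 0 h to 21 h, the median log2 ratio of the 6 measured of 18 macrophage markers was 2.16, 2.31, 2.61, 2.26 and 1.91, and that of 22 measured whole-embryo markers was -1.42, -1.99, -1.57, -1.88 and -1.68. Of the macrophage markers, the cathepsin gene Ctss and the lysozyme gene Lyz2 stood at 6.21 and 4.16 at 0 h, whereas Cd68 and Tyrobp stood at -0.49 and -0.04. Csf1r, Adgre1, Itgam and Cd14 had no named probe with values on all arrays and are not analysed here. Each log2 ratio below is set so that the median of the array is 0, and a change is the difference of that log2 ratio from the 0 h array. All changes share the 0 h array.

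Of the 19828 probes, between 19344 and 19670 had a value on an array. The share of probes at least 10-fold above the array median was 0.19% at 0 h, 2.86% at 0.5 h and 4.35% at 2 h. At 7 h and 21 h it was 0.50% and 0.44%. The 0.5 h and 2 h arrays thus held more very high values than the others. In 94 of 207 runs of 96 consecutive numbers, at least 10% of probes stood 2-fold above 0 h at 0.5 h or 2 h. Across all genes 12.4% were past that fold upward at 2 h, so this rule alone shows no excess over the whole array. The runs that meet it are called affected runs here. The Tfrc probe (15270) and 1 Slc31a2 probe (8327) lie in such runs, and the Slc31a2 probes 6277 and 8816 lie outside them.

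Tfrc mRNA lay far lower late in the LPS time course. Its log2 ratio was 0.79 at 0 h, 1.06 at 0.5 h, 1.02 at 2 h, -0.07 at 7 h and -1.30 at 21 h. The values stayed close together over the first 2 h, and those at 7 h and 21 h were below all the earlier ones. At 21 h the ratio was 4.26-fold below that at 0 h (log2 change -2.09), the eighth lowest change of 8637 genes, and at 7 h it was 1.81-fold below (-0.85).

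A gene with 1 probe has no error of its own. For the 3015 genes that have several probes, the spread between a gene's own probes was pooled. It gave an SD of 0.67, 0.97, 0.51 and 0.47 for the change at 0.5, 2, 7 and 21 h. This spread is between probes on the same arrays, not between cultures. Outside the affected runs the pooled SD was 0.42, 0.55, 0.50 and 0.43 in that order. The Tfrc changes of 0.27 at 0.5 h and 0.24 at 2 h lay within the pooled spread of the 3015 genes. Ordered from the highest level, the arrays ran 0.5 h, 2 h, 0 h, 7 h and 21 h, and the first 3 did not differ beyond that spread. From 2 h to 7 h the Tfrc step was -1.09 on the log2 scale, about as large as the pooled SD of 1.03 for that step. Between 7 h and 21 h Tfrc fell by 1.24, against a pooled SD of 0.40 for that step.

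The Tfrc probe sits in a run whose median change was 0.44 at 0.5 h, 0.45 at 2 h, -0.07 at 7 h and -0.23 at 21 h. Relative to its neighbours, the Tfrc change was -0.16, -0.21, -0.79 and -1.86 in that order. The small early values thus differ in sign between the scales, while the late ones lie below 0 on both.

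At 7 h and 21 h Slc31a2 moved the other way. The mean log2 ratio over its 3 probes was 0.68 at 0 h, 0.53 at 0.5 h, 1.31 at 2 h, 1.80 at 7 h and 2.08 at 21 h. The late ratios were 2.18-fold and 2.64-fold above 0 h, as log2 changes of 1.12 (SD over probes 0.37) at 7 h and 1.40 (SD 0.75) at 21 h. The corresponding changes of 0.63 at 2 h (SD 1.10) and -0.15 at 0.5 h (SD 0.70) were smaller than the spread between the probes.

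**Figure D1:**
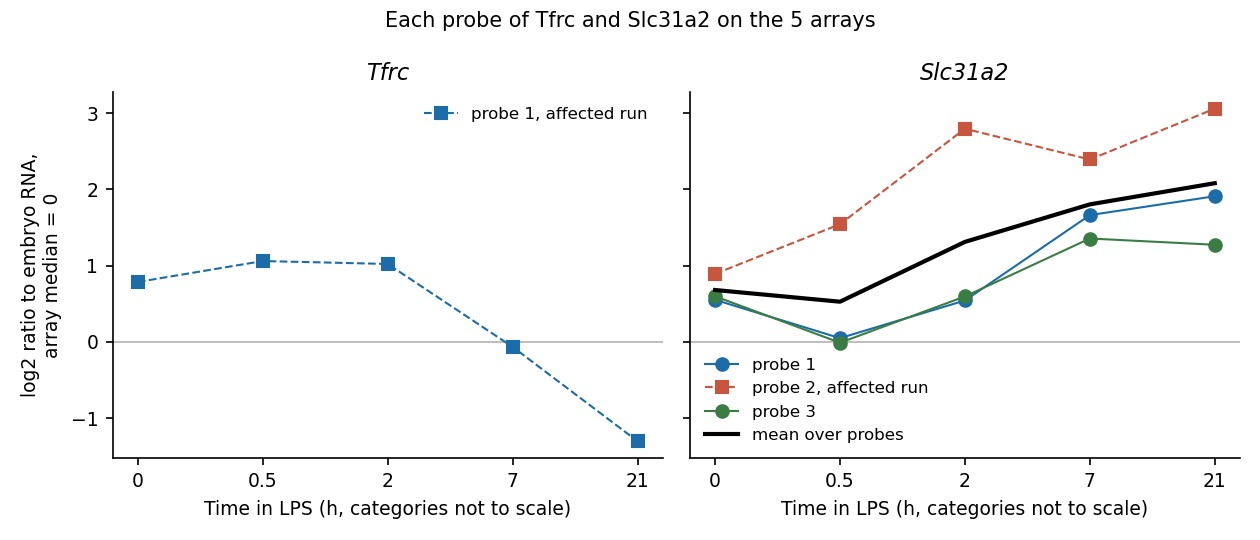
Log2 ratio to embryo RNA of each probe of Tfrc (left) and Slc31a2 (right) on the arrays of 0, 0.5, 2, 7 and 21 h, with the array median at 0. Dashed lines with squares are probes in affected runs and the black line is the mean over the Slc31a2 probes. Tfrc ends at -1.30 and the Slc31a2 mean at 2.08.

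The 3 Slc31a2 probes all lay above 0 h late but differed in direction early. Probe 6277 had log2 ratios of 0.55, 0.05, 0.54, 1.66 and 1.91 in order of time. Probe 8816 had 0.60, -0.01, 0.60, 1.36 and 1.27. These 2 probes, both outside the affected runs, were lower at 0.5 h than at 0 h, back at the 0 h value at 2 h, and above it at 7 h and 21 h.

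Probe 8327, in an affected run, had 0.89, 1.54, 2.80, 2.39 and 3.06. It was already above its 0 h value at 0.5 h, and its 2 h value was higher than that at 7 h. The median change of its run was 0.54 at 0.5 h and 0.87 at 2 h, and relative to that median its own change was 0.12 and 1.03. Without this probe the mean change of Slc31a2 was -0.56 at 0.5 h, -0.01 at 2 h, 0.94 at 7 h and 1.02 at 21 h. All 3 probes were above 0 h at 7 h (0.76 to 1.50) and at 21 h (0.68 to 2.17).

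Ordered from the highest level, the Slc31a2 arrays ran 21 h, 7 h, 2 h, 0 h and 0.5 h. Each neighbouring pair in that order differed by less than the SD over probes. From 7 h to 21 h, for instance, the step was 0.28 with an SD of 0.38.

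Among all 8637 genes, 4.08% stood 2-fold or more above 0 h and 3.16% as far below it at 7 h, and 3.05% and 1.45% did so at 21 h. Slc31a2 was past this fold at 7 h and 21 h and Tfrc at 21 h. The pair was picked with these changes known, so the shares give scale only. At 0.5 h, when 5.95% of genes were past the fold upward and 1.01% downward, and at 2 h, with 12.4% and 1.1%, neither gene was past the fold. The same shares are the scale for the counts of list genes below.

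**Figure D2:**
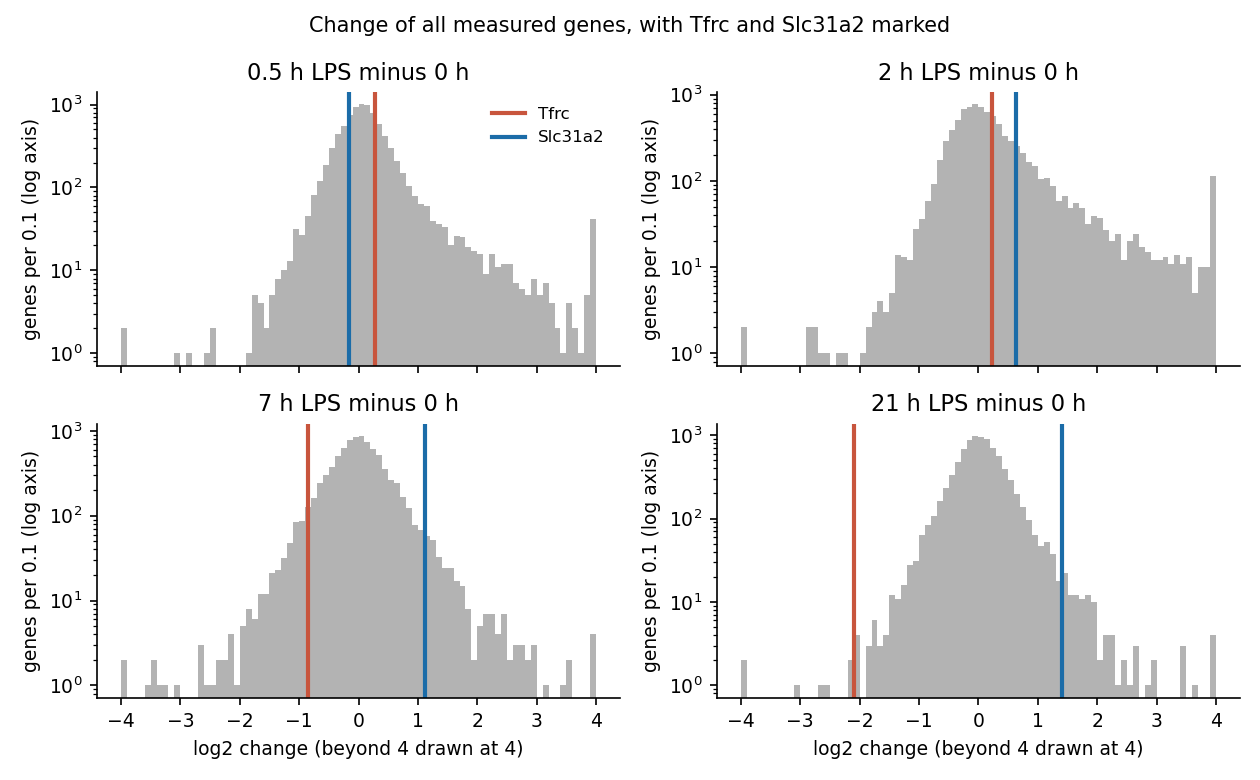
Histograms of the log2 change from 0 h of 8637 genes at 0.5, 2, 7 and 21 h (genes per bin of 0.1, log axis), with Tfrc (red) and Slc31a2 (blue) as vertical lines. Changes beyond 4 are drawn at 4. Both lines lie in the bulk at 0.5 h and 2 h, and at 21 h Tfrc stands at -2.09 and Slc31a2 at 1.40.

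Around Tfrc, itself chosen with its late change known, the other measured genes of the list of iron uptake and transport stood within 2-fold of 0 h at 21 h. Of the 23 genes on that list 9 were measured, Tfrc included. The median change was 0.25, -0.16, -0.37 and -0.25 in order of time, against 0.08, 0.07, -0.00029 and 0.02 for all genes. At 7 h 1 gene of 9, Cybrd1, was past 2-fold downward and 0 upward, and at 21 h the same count held with Tfrc as the 1 gene. Under quantile normalization 3 of 9 were past 2-fold downward at 7 h. Without the affected runs 0 of 6 were past it downward at 7 h or 21 h, since the Tfrc probe and both probes of Cybrd1 lie in such runs.

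Ferroportin (Slc40a1), the exporter of cellular iron, had log2 ratios of 0.01, 0.01, -0.27, -0.14 and -0.24, and so stayed within 0.27 of 0 h at all times. Steap3, which reduces the iron released in the endosome, averaged 1.30, 1.55, 3.21, 0.76 and 1.05. Its high 2 h value came from 1 of its 2 probes, which changed by 3.95 while the other changed by -0.15 (SD 2.90), although neither lies in an affected run. Under quantile normalization the mean change of Steap3 at 2 h was -0.18. Cybrd1, a ferric reductase, was lower at 7 h (log2 change -1.40, SD over probes 0.05) and stood at -0.84 at 21 h (SD 0.47).

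Of the genes that store iron or sense it, ferritin heavy chain lay higher late. Fth1 averaged 1.08 at 0 h, 1.20 at 0.5 h, 1.32 at 2 h, 1.91 at 7 h and 2.55 at 21 h over 4 probes. At 21 h it was 2.77-fold above 0 h (log2 change 1.47, SD over probes 0.77), with all 4 probes above 0 h and 3 of them past 2-fold. The lowest of these probes changed by 0.57 and the highest by 2.39, and 3 of the 4 lie outside the affected runs.

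The ferritin light chain gene Ftl1 averaged 2.04, 1.98, 1.62, 1.82 and 2.63 over 6 probes. All 6 probes were below 0 h at 2 h and at 7 h, and 5 of 6 were above it at 21 h, when the mean was 1.50-fold higher (log2 change 0.59, SD 0.40). Under quantile normalization its change was -2.55 at 2 h, -1.23 at 7 h and 0.05 at 21 h, so the higher value at 21 h was not seen there. Ftmt, the mitochondrial ferritin, was 2.34-fold higher at 21 h on 1 probe. It resembles Fth1 in sequence, and whether its cDNA probe separates them was not tested. The list of iron storage and its regulation had 3 of 9 measured genes past 2-fold upward and 0 downward at 21 h, and its median change was 0.64. The third besides Fth1 and Ftmt was Hif1a. Of all genes, 3.05% were past 2-fold upward at 21 h. Without the affected runs the list had 1 of 6 past 2-fold.

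Aco1, which encodes iron regulatory protein 1, had log2 ratios of -0.27, -0.60, -0.40, -1.05 and -0.48. Its lowest value was at 7 h, and its 1 probe lies in an affected run. Hif1a, the oxygen-regulated subunit of hypoxia-inducible factor, averaged 0.47, 0.94, 1.36, 2.01 and 2.41 over 6 probes. All 6 were above 0 h at every later time and 5 were past 2-fold at 21 h (log2 change 1.94, SD 0.64), but all 6 lie in affected runs. Tfrc lay below 0 h at 7 h and 21 h, where Hif1a lay above it. Hif1a had already changed by 0.47 at 0.5 h and 0.88 at 2 h, when Tfrc had changed little. A link between these genes was not tested.

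Heme oxygenase 1 (Hmox1), which frees iron from heme, had log2 ratios of 2.09 at 0 h, 2.52 at 0.5 h, 1.23 at 2 h, 2.21 at 7 h and 4.33 at 21 h. It was below 0 h at 2 h, near it at 7 h and 4.74-fold above it at 21 h, on 1 probe in an affected run. Under quantile normalization its change was -0.90 at 7 h and 2.24 at 21 h. Slc48a1, which carries heme out of the phagolysosome, changed by -1.01 at 2 h, -0.97 at 7 h and 0.43 at 21 h, on a probe outside the runs. Of the 7 measured of 12 heme-recycling genes, 1 was past 2-fold upward and 0 downward at 21 h, and their median change was 0.43. Both of these genes were below 0 h at 2 h and above it at 21 h.

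Of the genes that build heme and iron-sulfur clusters, 14 of 18 were measured, and 0 of them were past 2-fold in either direction at 21 h, when their median change was 0.11. At 2 h and at 7 h 1 gene each was past it upward. Uros, an enzyme of heme synthesis, was 3.13-fold higher at 2 h (SD 0.19, 2 probes, 1 in an affected run). The erythroid enzyme gene Alas2 was 2.54-fold higher at 7 h (SD 1.73), and the spread between its 2 probes exceeded that change.

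Tfrc is also abundant in erythroid precursors, which whole embryos contain. The hemoglobin genes Hba-a1 and Hbb-b1 had log2 ratios of -4.21 and -5.48 at 0 h and -4.14 and -5.14 at 21 h. The 12 measured of 17 erythroid markers had medians of -1.64, -1.29, -1.15, -0.77 and -1.14 in order of time. At 7 h 3 of the 12 were past 2-fold upward, Ank1 (3.16-fold, SD 1.50), Klf1 (2.95-fold, on 1 probe) and Alas2, and at 21 h 1 was, Ank1 (2.39-fold, SD 0.76). None was past it downward at these times. Of all genes, 4.08% were past it upward at 7 h and 3.05% at 21 h. The part of the erythroid markers in the Tfrc values was not tested.

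**Figure D3:**
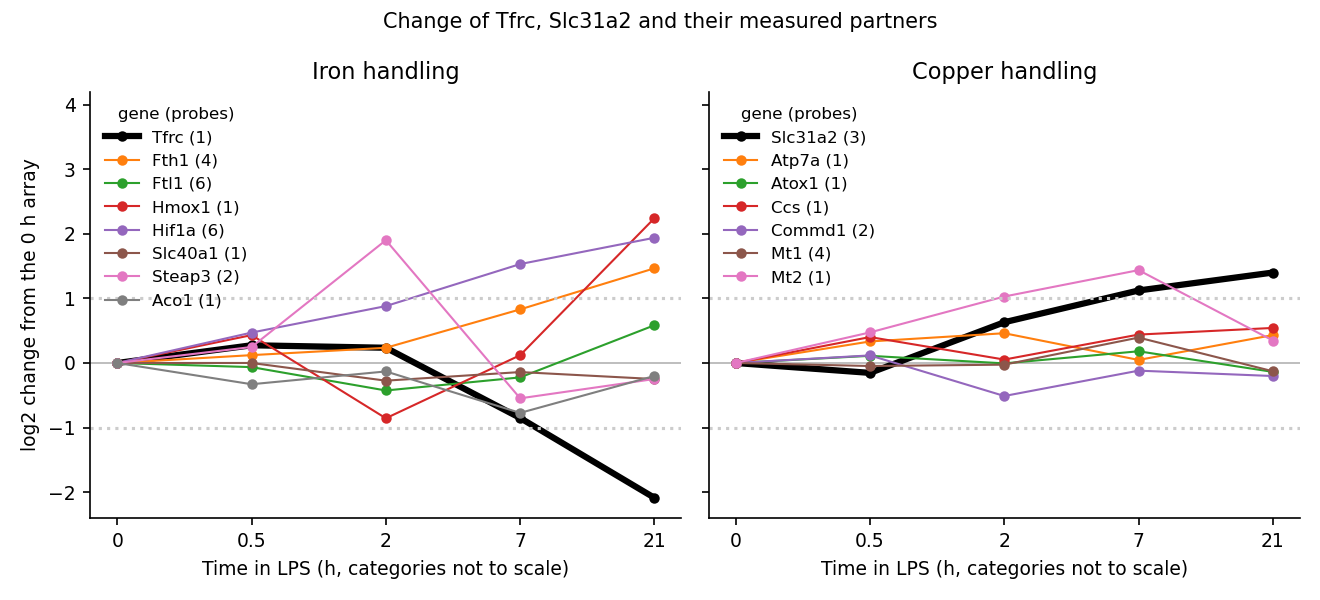
Log2 change from the 0 h array at 0.5, 2, 7 and 21 h of iron handling genes (left) and copper handling genes (right), as means over the number of probes in brackets, with dotted lines at 2-fold. Tfrc and Slc31a2 are in black. At 21 h Hmox1, Hif1a and Fth1 lie above 2-fold and Tfrc lies at -2.09, and among the copper genes drawn Slc31a2 is the one beyond 2-fold.

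Around Slc31a2, the other copper transporters and chaperones moved less than the gene itself at 7 h and 21 h. Slc31a2 was chosen with its late change known, so this comparison is a description only. Of 14 genes on the list 9 were measured, Slc31a2 included, and at 7 h and 21 h Slc31a2 was the 1 gene past 2-fold. The other 8 had a median change of 0.17 at 7 h and 0.24 at 21 h, against -0.00029 and 0.02 for all genes. The importer gene Slc31a1, Atp7b, Cox17 and Sod1 had no named probe with values on all arrays and are not analysed here. The same holds for the iron genes Trf, Slc11a1, Slc11a2 and Ireb2.

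Atp7a, the copper-exporting ATPase, had log2 ratios of 0.27, 0.60, 0.73, 0.31 and 0.70 on a probe outside the affected runs. Its changes ran from 0.05 at 7 h to 0.46 at 2 h and stayed below the pooled SD of each time. Atox1, the chaperone that hands copper to that ATPase, had -0.91, -0.80, -0.91, -0.72 and -1.04. Ccs, the chaperone of superoxide dismutase 1, had -0.20, 0.20, -0.15, 0.24 and 0.34, with a change of 0.54 at 21 h. Commd1, which takes part in copper export, averaged -0.68, -0.56, -1.19, -0.80 and -0.88 over 2 probes. None of these 4 genes was past 2-fold at any time. Cox11, a copper assembly factor of cytochrome oxidase, was 2.39-fold and 2.30-fold higher at 0.5 h and 2 h and stood at -0.16 at 21 h, on 1 probe in an affected run.

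The metallothioneins bind copper and zinc. Mt2 had log2 ratios of -0.999, -0.52, 0.03, 0.44 and -0.65, highest at 7 h (2.71-fold above 0 h) and back within 2-fold at 21 h, on 1 probe in an affected run. Mt1 averaged -0.51, -0.56, -0.54, -0.12 and -0.64 over 4 probes, with all 4 above 0 h at 7 h by 0.19 to 0.66. Mt1 and Mt2 are alike in sequence, and whether their probes share signal was not tested. Mt4 was 2.58-fold higher at 7 h, and Mtf1, the metal-sensing transcription factor, was 2.03-fold higher at 2 h and 1.96-fold at 21 h. Mt4 and Mtf1 have all their probes in affected runs. Lox, the copper-dependent lysyl oxidase, was 5.24-fold higher at 2 h, 1.84-fold at 7 h and 4.36-fold at 21 h, on a probe outside the runs with a log2 ratio of -3.20 at 0 h. Of 9 measured of 17 genes of this list, 4 were past 2-fold upward at 2 h, 2 at 7 h and 1 at 21 h. None was past it downward at any of these times. The shares of all genes past it upward were 12.4%, 4.08% and 3.05%.

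Zinc transporters, relatives in the handling of metals, had 0 of 11 measured genes past 2-fold in either direction at 21 h. At 7 h 1 was higher, Slc39a13 (2.44-fold, on 1 probe in an affected run). At 0.5 h 1 of 11 was past it upward and 1 downward, and at 2 h 2 upward and 0 downward. Of all genes, 5.95% were past it upward and 1.01% downward at 0.5 h, and 12.4% and 1.1% at 2 h. Slc39a9 was 6.55-fold higher at 0.5 h (SD 1.92) and 4.27-fold at 2 h (SD 1.07), with both probes in affected runs. Slc30a7 was 2.25-fold higher at 2 h (SD 1.25). Slc30a1, which exports zinc from the cell, had a change of -1.12 at 0.5 h, on 1 probe in an affected run.

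The recycling machinery that carries the transferrin receptor had 0 of 12 measured genes past 2-fold at 21 h, with a median change of -0.06. Ehd1, which acts in exit from recycling endosomes, was 2.09-fold higher at 7 h (SD 1.13, 2 probes). At 2 h the clathrin adaptor subunit Ap2s1 was 97.6-fold higher on 1 probe outside the affected runs. Rab11fip1, a partner of the recycling GTPase RAB11, was 15.0-fold higher at 2 h (SD 0.48) with both probes in affected runs. On that array 4.35% of all probes stood at least 10-fold above the median, against 0.19% at 0 h. Under quantile normalization the log2 changes at 2 h were 2.50 for Ap2s1, against 6.61, and 1.94 for Rab11fip1, against 3.91. At 7 h Ap2s1 stood at 0.68 of its 0 h ratio, and at 21 h at 0.53.

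Cell cycle genes lay lower on the same late arrays as Tfrc. Of 32 measured of 36, 7 were past 2-fold downward and 1 upward at 7 h, and 14 downward and 0 upward at 21 h. The shares of all genes past it downward were 3.16% at 7 h and 1.45% at 21 h. The list medians were 0.20, 0.07, -0.66 and -0.84 in order of time. Under quantile normalization 15 were past 2-fold downward at 7 h and 16 at 21 h. Outside the affected runs, 3 of 16 genes were at least 2-fold lower at 21 h. Markers of neutrophils, with 6 of 12 measured, had median log2 ratios of 0.30, 0.52, 0.21, 0.24 and -0.34 from 0 h to 21 h, and at 21 h they ranged from -1.03 to 0.93 with 2 of 6 past 2-fold downward. The part of either list in the Tfrc change was not tested.

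The genes with the pattern most like that of Tfrc were taken by the root mean square difference over the 5 arrays, after each gene's own mean was subtracted. They were Ube2c (0.10), a ubiquitin-conjugating enzyme of mitosis, the cyclin B2 gene Ccnb2 (0.20), the thymidine kinase gene Tk1 (0.25), the replicative helicase gene Mcm6 (0.31) and the cyclin A2 gene Ccna2 (0.34). Ube2c, the nearest, had log2 ratios of 0.50, 0.72, 0.66, -0.16 and -1.53. It stayed high over the first 2 h and was lowest at 21 h, as Tfrc was. Of the 5, Ccnb2 has 2 probes with 1 outside the affected runs, and the single probes of the others lie in them. Among genes with at least 2 probes, the nearest after Ccnb2 were the condensin gene Smc2 (0.35), the neutrophil granule gene Ngp (0.37), the spindle checkpoint gene Mad2l1 (0.39) and the clamp loader gene Rfc3 (0.39).

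For Slc31a2 the nearest were Ngdn (0.10), Tank (0.10), an adaptor of TRAF signalling, Glipr2 (0.12), Ndufv1 (0.13), a subunit of respiratory complex I, and Sorbs2 (0.13). Tank had log2 ratios of 0.42, 0.54, 1.27, 1.81 and 1.95, on 1 probe outside the affected runs. Like the Slc31a2 mean, it lay higher from 2 h on and highest at 21 h. Among genes with at least 2 probes, the nearest after Ndufv1 were 2510039O18Rik (0.14), Them5 (0.20), the membrane protein gene Ms4a6b (0.21) and Hao2 (0.21). The likeness is to a mean whose 3 probes disagree at 2 h, and a small difference over 5 arrays is a description of these arrays.

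**Figure D4:**
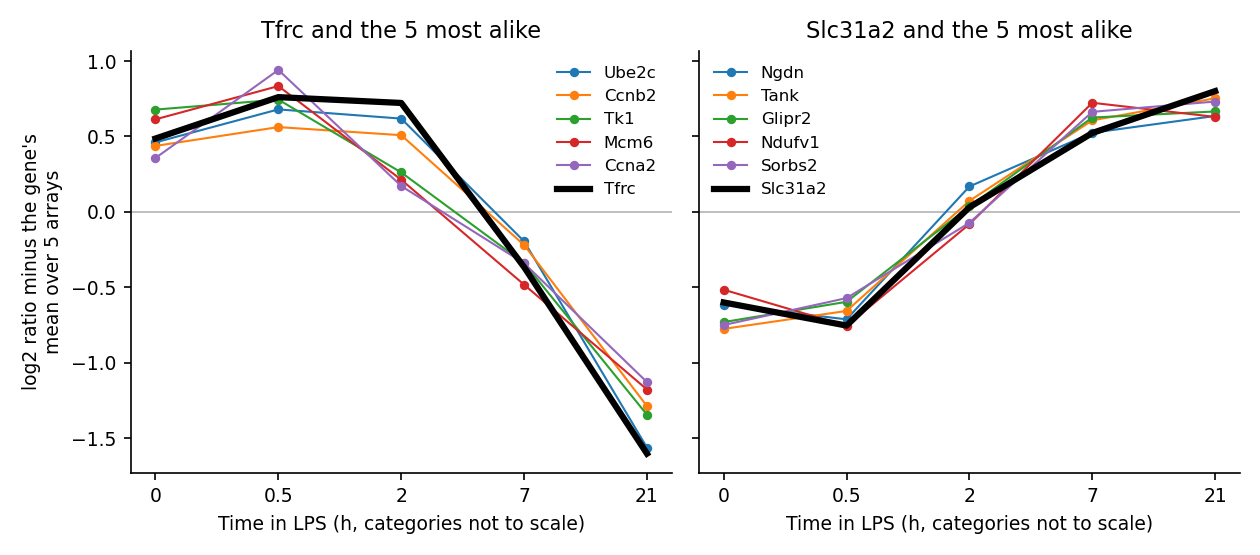
Log2 ratio minus each gene's own mean over the 5 arrays for Tfrc (left, black) and Slc31a2 (right, black) and the 5 genes with the smallest root mean square difference to each, at 0, 0.5, 2, 7 and 21 h. The genes near Tfrc are high to 0.5 h and lowest at 21 h, and those near Slc31a2 are low at 0 h and 0.5 h and high at 7 h and 21 h.

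Set side by side, the 2 genes lay on opposite sides of their 0 h values at 7 h and 21 h. The Slc31a2 change was -0.15, 0.63, 1.12 and 1.40 at 0.5, 2, 7 and 21 h, and the Tfrc change was 0.27, 0.24, -0.85 and -2.09. The difference between them, Slc31a2 minus Tfrc, was -0.43, 0.40, 1.98 and 3.49 on the log2 scale. Both sets of changes share the 0 h array, and a reading on that array moves each gene's values at all later times together. Against the 0.5 h array in place of 0 h, Tfrc stood at -1.13 at 7 h and -2.36 at 21 h, and Slc31a2 at 1.28 and 1.56.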

How the data were processed

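A total of 5 cDNA arrays with 2 channels were analysed, 1 per time, from the deposited table of log10 ratios per probe. The authors' scanner, background correction and normalization are not given in the sources used here, and log10 was inferred from the range of the deposited values. They were turned into log2 ratios (times 3.32), and the median of the 18296 probes with values on every array was subtracted from each array. Symbols came from a platform annotation of 2008: 14759 probes had 1 symbol, 170 several and 4899 were not listed, and 14628 were updated through Entrez identifiers with the GRCm38.p6 gene table. The 13782 named probes were averaged to 8637 genes. No test was possible with 1 array a group, so counts use a fold of 2. Affected runs had 10% or more of their probes 2-fold above 0 h at 0.5 h or 2 h.

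The members, gene lists and affected runs were chosen with earlier results of these data known. Named genes are both members, 21 listed partners (13 measured) and, from each of 8 metal and endosome lists, up to 4 further genes with the largest change past 2-fold, plus the 5 most alike genes of each member. Macrophage, embryo, erythroid and neutrophil markers are given beside them. Marker medians at 21 h, as log2 changes, were -0.51 for neutrophils, 0.39 for B cells, 0.34 for T and NK cells (2 genes) and -0.03 for stroma, and 2.64 for 15 LPS-response genes. Alternatives covered centring, quantile normalization, baseline, log base, probes and runs. Computation used Python 3.11.15, numpy 2.4.6 and pandas 2.3.3, and was tested on simulated data.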

Additional observations from a re-analysis of the deposited data

How the results depend on the processing

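Of 62 alternative values for Tfrc and Slc31a2, 57 stayed within the pooled SD over probes of that time. Among the 57, 8 without centring and 8 with the median of all probes could not leave it. Those settings shift every gene on an array by the same amount, smaller than that SD. A further 6 of the 57 are changes from the 0.5 h array, so the count of 57 overstates how far the values were tested. With the values read as log2, Tfrc changed by -0.26 at 7 h and -0.63 at 21 h and Slc31a2 by 0.34 and 0.42. Under quantile normalization Slc31a2 changed by 1.91 at 21 h. Read as log10, the alternatives, quantile normalization included, put Tfrc between -2.53 and -1.86 at 21 h and between -1.23 and -0.79 at 7 h, and Slc31a2 between 1.02 and 1.91 and between 0.90 and 1.37. At 0.5 h and 2 h both genes took either sign. Among the other named genes, 4 changes past 2-fold turned in sign: Steap3 at 2 h (-0.18) and Ap2s1 at 0.5 h (-0.19) under quantile normalization, and Cox11 (-0.053) and Slc39a9 (-0.62) at 2 h against the 0.5 h array. A further 17 changes, of 11 genes and each under 2-fold, turned by more than the pooled SD over probes, 10 with 0.5 h as the baseline and 7 after quantile normalization. The 7 included Fth1 at 0.5 h (-0.85), Hmox1 at 0.5 h (-1.73) and 7 h (-0.90) and Ftmt at 2 h (-1.22), and the 10 included Uros (-0.29) and Slc30a1 (0.58) at 21 h. Another 22 turned by less than that SD. Values with 0.5 h as the baseline are changes from the 0.5 h array, not second estimates of the change from 0 h. A turned sign there follows from the gene's own change at 0.5 h. The cause of the other turns was not tested.

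Counts of genes past 2-fold depended on the setting. Under quantile normalization 240 genes were higher and 298 lower at 0.5 h (514 and 87 in the text's setting), 430 and 395 at 2 h (1071 and 95), 516 lower at 7 h (273) and 391 lower at 21 h (125). Without the affected runs, with fewer genes counted, 77 were higher at 0.5 h, 253 higher at 2 h, 172 lower at 7 h, and 153 higher (263) and 65 lower at 21 h. Without centring, 220 were higher (352) and 510 lower at 7 h and 222 lower at 21 h, where the median of all genes moved to -0.22 and -0.12. Against the 0.5 h array, 694 were higher at 2 h, 709 lower at 7 h and 627 lower at 21 h. The list counts without the runs were chosen after seeing the data. No paired analysis was possible because each group has 1 array. Signal over background is unknown, and with 1 array a time no change has a replicate.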
